A study of Mus musculus with 3 samples.

Results

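The 9 genes described here encode components and regulators of complement, and they were read in 3 segments of the embryonic mouse gut. They are Cfi, C3, C4b, C1qa, C1qb, C1qc, Serping1, Masp1 and Cd55, taken by symbol from a table of 33762 features, and all 9 were matched. The set was drawn up with earlier results of these libraries known, so the level and fold of each member are given as a description. The groups were colon, caecum and presumptive ileum of wild type mouse embryos of strain Bl6/C57 at E13.5, with 1 sample each. Polyadenylated RNA of whole segments was sequenced, and the ileum was the last of 3 equal portions of the small intestine.

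Complement is a cascade of plasma proteases that tags surfaces for uptake or lysis. C1q, bound to the proteases C1r and C1s, starts the classical route, and collectins or ficolins bound to MASP proteases start the lectin route. Both routes cleave C4 and C2, the alternative route uses factors B and D, and all of them meet at C3. Factor I, the C1 inhibitor and membrane proteins such as CD55 hold the cascade in check. Liver is the main source of most of these proteins in plasma, while macrophages are the main source of C1q.

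The colon, caecum and ileum libraries held 50772855, 64439701 and 50079617 counts, with 17205, 17658 and 17041 features at 20 counts or more. The table gives 2 columns per segment, which its headers call replicates. Their mean squared difference was 0.486, 0.486 and 0.485 times the variance that counting error gives to independent columns, so each pair was averaged and read as 1 library. No difference below therefore has a replicate check, and no p-value is given. Levels are RPKM, reads scaled to gene length and to library depth, as the authors deposited them. All 10 epithelial, 7 mesenchymal, 6 smooth muscle and 5 endothelial marker genes read as a check of the tissue had 20 counts or more in every library. Folds are ratios of counts after TMM scaling, a correction for library size and composition, and brackets after them give 95% intervals that cover counting error only. Genes were compared where the higher of the paired libraries had 20 counts or more, and a fold of 2, either way, was the mark for calling them apart.

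Cfi, Masp1 and Cd55 stood 2-fold or more apart between segments, each with its own segment of highest level, and the other 6 members stayed within 2-fold in every comparison they entered. Cfi was highest in the ileum, Masp1 in the caecum and Cd55 in the colon. Between colon and caecum 1 of 8 members compared was apart, beside 7.84% of the 17900 features compared. For colon over ileum it was 3 of 8, beside 8.33% of 17579, and for caecum over ileum 2 of 9, beside 7.11% of 17827. The median log2 fold of the members was -0.31 for colon over caecum, 0.29 for colon over ileum and 0.35 for caecum over ileum, against -0.0087, -0.0042 and 0.0089 over all features compared. Since the members were chosen with such values in view, nothing is read from these shares.

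**Figure D1:**
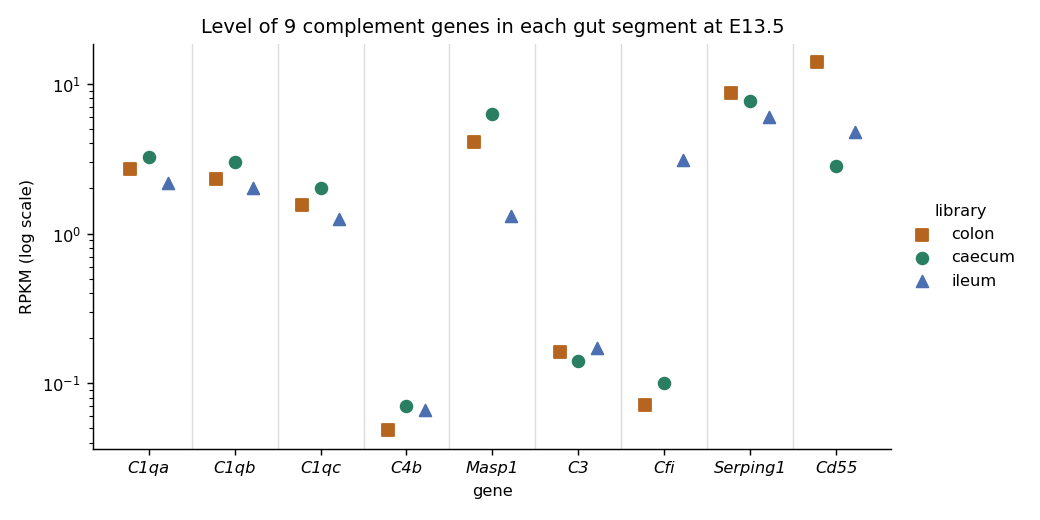
Level of each member in RPKM (log axis) in the colon, caecum and ileum libraries, 1 point per library and no error bars because each segment had 1 sample. Cfi is at 3.08 RPKM in the ileum and near 0.1 or lower elsewhere, Masp1 is highest in the caecum and Cd55 in the colon, while C3 and C4b lie below 0.2 RPKM in every library.

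The 3 chains of C1q, the recognition protein of the classical route, had nearly the same profile. C1qa, C1qb and C1qc each encode 1 of the polypeptides that wind together into the collagen-like stalk and globular head of C1q. They lie side by side on the minus strand, in the order C1qb, C1qc and C1qa, within 18675 bases of chromosome 4 (mm9, 136436044 to 136454718), between the Eph receptor genes Ephb2 and Epha8. RefSeq start-region windows, which run from 250 bases before to 50 bases after each gene start, were at hand for 4 of the 9 members, C1qb, C1qc, Cd55 and C3. The windows of C1qb (GRCm38.p6, chr4:136886151-136886450, minus strand) and C1qc (GRCm38.p6, chr4:136892865-136893164, minus strand) are shown because these neighbouring genes had like profiles. Capitals mark the letters GAGGAA or their reverse complement, a core that ETS factors such as the macrophage factor PU.1 bind.
C1qb: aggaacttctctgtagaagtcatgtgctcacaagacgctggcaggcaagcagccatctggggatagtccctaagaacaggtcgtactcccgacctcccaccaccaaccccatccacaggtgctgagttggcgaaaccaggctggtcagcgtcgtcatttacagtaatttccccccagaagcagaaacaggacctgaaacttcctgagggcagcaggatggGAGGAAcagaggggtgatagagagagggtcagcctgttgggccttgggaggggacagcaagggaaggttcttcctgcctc
C1qc: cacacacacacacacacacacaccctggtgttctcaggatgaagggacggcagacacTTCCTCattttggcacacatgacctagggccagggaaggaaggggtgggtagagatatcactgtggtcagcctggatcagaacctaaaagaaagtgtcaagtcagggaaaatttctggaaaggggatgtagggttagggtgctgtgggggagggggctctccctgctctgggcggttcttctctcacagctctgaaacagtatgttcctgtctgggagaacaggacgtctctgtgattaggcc

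Each window holds 1 match to GAGGAA, read on both strands, 30 bases before the start in C1qb and 193 bases before it in C1qc. Such a match occurs in 28.3% of the 32851 windows of the same length in the table, and neither window holds TATAAA, which occurs in 13.6%. The longest run of letters common to both windows on the same strand was 10 bases.

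C1qa had 144, 217 and 114 counts in the colon, caecum and ileum, or 2.72, 3.24 and 2.19 RPKM. C1qb had 128, 210 and 110 counts, or 2.33, 3.0 and 2.02 RPKM in the same order. C1qc had 151, 252 and 121 counts, or 1.54, 2.02 and 1.25 RPKM. All 3 chains were thus highest in the caecum library and lowest in the ileum library, and none was 2-fold apart. Caecum over ileum folds were 1.46 (1.16 to 1.85) for C1qa, 1.47 (1.16 to 1.87) for C1qb and 1.6 (1.28 to 2.01) for C1qc. Colon over caecum folds were 0.839 (0.675 to 1.04), 0.770 (0.614 to 0.964) and 0.757 (0.615 to 0.930), so that for C1qa the counting interval still held 1. Colon over ileum folds were 1.23, 1.13 and 1.21, with intervals that held 1 for each chain.

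Summed over the 3 chains, the libraries held 423, 679 and 345 counts in the colon, caecum and ileum. The sum was 0.79-fold (0.70 to 0.89) for colon over caecum, 1.19-fold (1.03 to 1.38) for colon over ileum and 1.51-fold (1.33 to 1.73) for caecum over ileum. The proportions among the chains hardly moved. C1qa made up 41.3%, 39.2% and 40.1% of the summed RPKM in the colon, caecum and ileum, C1qb 35.3%, 36.3% and 37.0%, and C1qc 23.4%, 24.5% and 22.9%. The share of each chain thus stayed within a few percentage points across the segments.

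Genes of macrophages, the known source of C1q, differed less between the segments in their median and sum. Of 17 marker genes, 16 had 20 counts or more in every library, and Cd163, a scavenger receptor of mature macrophages, had 1, 0 and 1 counts in the colon, caecum and ileum. Their summed level was 90.5, 91.1 and 82.9 CPM, counts scaled to library depth, in the same order. The median log2 fold of the 16 was -0.10 for colon over caecum, 0.04 for colon over ileum and 0.03 for caecum over ileum, against -0.38, 0.28 and 0.55 for the median C1q chain. Between caecum and ileum 13 of the 16 lay below all 3 chains, while Laptm5 and Tyrobp, a lysosomal membrane protein and a signalling adaptor, lay above them at 0.89 and 0.84. Cd68 lay among the chains at 0.55, with 200, 332 and 174 counts in the colon, caecum and ileum. Its log2 fold was -0.39 for colon over caecum and 0.16 for colon over ileum. Csf1r, the receptor for macrophage growth factor, had 1125, 1428 and 1062 counts in the colon, caecum and ileum and a log2 fold of 0.05 for caecum over ileum. Lyz2, the macrophage lysozyme, ran the other way, with 363, 166 and 226 counts. At 2.76-fold (2.29 to 3.34) above its caecum level in the colon, it was the 1 gene apart among the 16 listed markers compared. In RNA of whole tissue, fewer cells of a type and less RNA per cell cannot be told apart, and the part that macrophage number has in the C1q profile was not tested.

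**Figure D2:**
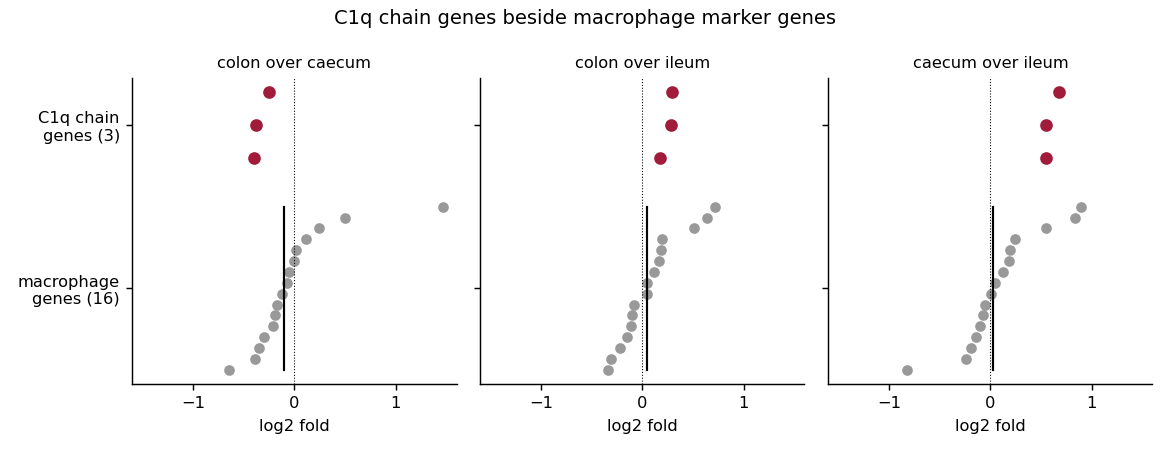
Log2 folds of the 3 C1q chain genes (red) and of 16 macrophage marker genes (grey, ordered by fold; black bars, their median) for colon over caecum, colon over ileum and caecum over ileum. For caecum over ileum the C1q chains sit at 0.55 to 0.68 and the macrophage median at 0.03.

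C4b and C3, which encode the substrates of the cascade, were barely detected in all 3 segments. C4b (chromosome 17, mm9, 34865325 to 34880827, minus strand), whose product is cleaved by C1s and MASP2, had 14, 26 and 19 counts in the colon, caecum and ileum, or 0.048, 0.071 and 0.067 RPKM. It has a close copy in the mouse, C4a, for which no row was matched, so reads of the pair may not have been told apart. C3 (chromosome 17, mm9, 57343397 to 57367559, minus strand) encodes the protein on which the 3 routes meet, and it had 42, 46 and 44 counts, or 0.161, 0.141 and 0.173 RPKM. Its level was above that of 18.7%, 18.2% and 19.4% of the features counted at all in the colon, caecum and ileum. At these depths no difference between segments could be seen for either gene. The intervals were 0.74 to 1.79 for C3 and 0.33 to 1.35 for C4b in colon over caecum, and 0.52 to 1.24 and 0.56 to 2.01 in caecum over ileum.

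Masp1 was highest in the caecum library. It encodes the serine proteases MASP-1 and, by splicing, MASP-3, which act in the lectin route and in the activation of factor D. In humans, mutations of MASP1 or of the collectin genes COLEC10 and COLEC11 cause a developmental syndrome of the face. Masp1 had 1247, 2453 and 396 counts in the colon, caecum and ileum, or 4.08, 6.33 and 1.32 RPKM. The caecum stood above both other libraries and the ileum well below them. Masp1 was 4.76-fold (4.28 to 5.31) above its ileum level in the caecum, 3.06-fold (2.73 to 3.44) above its ileum level in the colon, and 1.56-fold (1.45 to 1.67) below its caecum level in the colon. Of the features compared, 196 had a larger fold for caecum over ileum. The gene lies on the minus strand of chromosome 16 (mm9, 23449490 to 23520676), and the table gives 1 value for all its transcripts.

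Masp2, the related protease that cleaves C4 and C2, did not share this profile, with 4.68, 4.44 and 4.36 RPKM in the colon, caecum and ileum. The ratio of Masp1 to Masp2 in RPKM was therefore 0.87 in the colon, 1.43 in the caecum and 0.30 in the ileum. Masp2 overlaps Tardbp by 3118 bases on the other strand, and reads of that stretch may not have been told apart. Tardbp had 44632, 58136 and 46410 counts in the colon, caecum and ileum, against 786, 946 and 722 for Masp2. The Masp2 level and the ratio may therefore not be those of Masp2 alone. Colec10, a collectin that binds MASPs, was highest in the ileum, where Masp1 was lowest. It had 2558, 3532 and 6415 counts and was in the colon 2.58-fold (2.46 to 2.70) and in the caecum 2.36-fold (2.27 to 2.46) below its ileum level. The genes with a profile nearest to that of Masp1 were March3, Pitx1, a paired-like homeobox gene, and Art5, at distances of 0.02, 0.03 and 0.10. The distance is Euclidean, over log2 scaled counts centred on each gene's mean of the 3 libraries, and 12 of 15082 features with 100 counts or more lay within 0.25 of Masp1. Profiles like those of C1qa, C1qb and C1qc were common, with 1722, 1591 and 838 features within that distance. Nearest to C1qb were Pcdhb7, the macrophage marker Cd68 and Csrnp2, at 0.012, 0.014 and 0.015.

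Cfi was found almost wholly in the ileum library. It encodes factor I, the plasma protease that cleaves C3b and C4b with the help of cofactors such as C4b-binding protein. The colon columns held 7 and 8 counts and the caecum columns 17 and 10, against 321.5 and 319.5 in the ileum columns. The means, rounded, were 8, 14 and 320 counts in the colon, caecum and ileum, or 0.071, 0.101 and 3.08 RPKM. The ileum stood far above the other libraries, which were too close to each other and too sparse to be ordered. Cfi was in the colon 41.2-fold (20.6 to 96.2) and in the caecum 29.7-fold (17.5 to 55.0) below its ileum level. Of the features compared, 11 had a smaller fold for colon over ileum and 5 for caecum over ileum. In the ileum its level was above that of 49.1% of the features counted.

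Cfi lies on the plus strand of chromosome 3 (mm9, 129539655 to 129578246), and its neighbours did not share its profile. Gar1, 5340 bases before it, had 3324, 4365 and 3968 counts in the colon, caecum and ileum, and Pla2g12a, 3277 bases after it, had 544, 662 and 898. Both stayed within 2-fold in every comparison. No other gene was within 0.25 of the Cfi profile. The nearest were Cps1 with 36, 80 and 1834 counts, Slc4a10, a bicarbonate transporter, with 110, 199 and 2324, and Otc with 9, 18 and 164, at distances of 0.32, 0.72 and 1.0. Cps1 and Otc encode enzymes of the urea cycle.

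C4bp, which encodes the alpha chain of C4b-binding protein, was sparse, with 8, 42 and 60 counts in the colon, caecum and ileum, and was in the colon 4.15-fold (1.93 to 10.2) below its caecum level and 7.72-fold (3.68 to 18.7) below its ileum level. Genes of plasma proteins, which mark hepatocytes and yolk sac, were mixed in direction. Of 11 such genes, 9 reached 20 counts in a library, and the median log2 fold of the 8 compared was -0.32 for colon over ileum and 1.01 for caecum over ileum, where Apoa2 did not enter the first and Alb did not enter the second. Apob, the apolipoprotein B gene, was also low in the colon at 38 counts, but was high in both the caecum and the ileum, with 3062 and 3414. Afp, of the same list, ran the other way from Cfi, with 2400, 3144 and 433 counts in the colon, caecum and ileum. In the colon 2 of the 8 compared were 2-fold or more above their ileum level and 1 was below it by that mark. In the caecum 4 of the 8 compared were above it and 0 below. Alb, the serum albumin gene, had 36, 8 and 6 counts in the colon, caecum and ileum and Ahsg, the fetuin gene, had 0 in each. The summed scaled level of the list was 116, 239 and 152 CPM in the colon, caecum and ileum, and its part in the Cfi profile was not tested. Of 6 smooth muscle markers, 5 were highest in the ileum like Cfi, but by less, and Des, the desmin gene, was highest in the caecum with 1568, 3102 and 1727 counts in the colon, caecum and ileum. The summed level of the 6 was 1157, 912 and 2425 CPM in the colon, caecum and ileum, with a median log2 fold of -1.06 for colon over ileum and -1.48 for caecum over ileum, and its part was not tested either.

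Serping1 stayed within 2-fold in every comparison. It encodes the C1 inhibitor, a serpin that blocks C1r, C1s and the MASPs, and lies on the minus strand of chromosome 2 (mm9, 84605544 to 84615601). It had 1023, 1154 and 698 counts in the colon, caecum and ileum, or 8.67, 7.71 and 5.99 RPKM. After scaling to library size the order was colon, caecum and ileum, with small steps. The colon was 1.12-fold (1.03 to 1.22) above the caecum and 1.42-fold (1.29 to 1.57) above the ileum, and the caecum was 1.27-fold (1.16 to 1.4) above the ileum. These intervals exclude 1, but whether steps of this size exceed the differences between embryos cannot be told with 1 sample each. Within a profile distance of 0.25 lay 1457 features, and Emcn, Maff and Csrp2 were the nearest genes.

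Cd55 was highest in the colon library. It encodes decay-accelerating factor, a membrane protein that takes apart the enzymes that cleave C3 on the surface of the cell that carries it. Cd55 had 3426, 886 and 1150 counts in the colon, caecum and ileum, or 13.9, 2.83 and 4.73 RPKM. The colon stood above both other libraries and the caecum was lowest. Cd55 was 4.89-fold (4.54 to 5.27) above its caecum level in the colon and 2.90-fold (2.71 to 3.10) above its ileum level, and it was 1.69-fold (1.55 to 1.84) below its ileum level in the caecum. In the colon its level was above that of 77.7% of the features counted, and 97 features had a larger fold for colon over caecum.

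Daf2, now named Cd55b, is a second copy of the gene in mice and lies 16017 bases from Cd55 on the same strand of chromosome 1 (Cd55, mm9, 132335604 to 132359321). Daf2 had 464, 98 and 142 counts in the colon, caecum and ileum and was 5.99-fold (4.80 to 7.52) above its caecum level in the colon and 3.18-fold (2.63 to 3.86) above its ileum level. The ratio of Cd55 to Daf2 in RPKM was 2.57, 3.16 and 2.81 in the colon, caecum and ileum. The transcripts are alike, and how reads that match both were assigned was not given in the sources used here. By distance of profile, Gsta3, S100a6 and Daf2 were the 3 genes nearest to Cd55, at 0.18, 0.20 and 0.20, and 4 features lay within 0.25. The start regions of the pair are shown because the genes are copies with like profiles (GRCm38.p6, Cd55 at chr1:130462695-130462994 and Daf2 at chr1:130422994-130423293, minus strand). Capitals mark bases inside a run of 12 or more bases that both windows hold. Where such runs overlap or adjoin they form 1 capital stretch, which need not be the same in both windows.
Cd55: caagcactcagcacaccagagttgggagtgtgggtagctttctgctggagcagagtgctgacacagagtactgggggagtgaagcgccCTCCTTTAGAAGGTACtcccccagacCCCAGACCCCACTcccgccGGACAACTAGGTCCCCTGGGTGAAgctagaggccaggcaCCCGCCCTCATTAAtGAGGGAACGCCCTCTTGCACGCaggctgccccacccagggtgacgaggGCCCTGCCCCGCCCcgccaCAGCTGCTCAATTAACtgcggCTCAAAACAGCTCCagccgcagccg
Daf2: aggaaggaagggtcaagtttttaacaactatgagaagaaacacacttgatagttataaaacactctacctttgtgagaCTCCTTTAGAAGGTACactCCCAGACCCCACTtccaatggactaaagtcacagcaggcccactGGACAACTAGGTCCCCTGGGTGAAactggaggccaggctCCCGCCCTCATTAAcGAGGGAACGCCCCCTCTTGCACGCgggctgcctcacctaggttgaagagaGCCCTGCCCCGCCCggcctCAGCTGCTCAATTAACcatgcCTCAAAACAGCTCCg

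Of the 300 bases in each window 260 were aligned to a base of the other, and the rest fell in gaps. Of the 260 aligned bases 213 were identical, or 81.9%, and the longest common run had 24 bases. Shared runs covered 133 bases of the Cd55 window and 135 of the Daf2 window. Each window holds 2 matches to GGGCGG, a GC box, read on both strands, 77 and 7 bases before the start in Cd55. Such a match occurs in 35.7% of the windows in the table. The Cd55 window holds no TATAAA, and that of Daf2 holds 1, at 197 bases before the start. Gm16083, a transcript of the other strand, overlaps Cd55 by 169 bases and had 74, 24 and 31 counts in the colon, caecum and ileum, and without known use of strand its reads cannot be told apart from those of Cd55 there.

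Epithelial markers were nearly even as a list. Among single genes, epithelial Cdh1, Krt8 and Krt19 and mesothelial Msln, among others, were highest in the colon like Cd55, while Cdx2 was lowest there. Over 10 epithelial genes the median log2 fold was -0.04 for colon over caecum and 0.11 for colon over ileum, and their summed scaled level was 600, 537 and 533 CPM in the colon, caecum and ileum. Single epithelial genes ran from -0.93 (Cdx2) to 0.61 (Cdh1) for colon over caecum and from -0.85 (Cdx2) to 1.11 (Krt19) for colon over ileum. Of 4 mesothelial genes, only Msln, the mesothelin gene, was apart, with 204, 16 and 24 counts, while Wt1, Upk3b and Lrrn4 stayed within 2-fold between colon and caecum. The summed level of these 4 was 141, 120 and 92.3 CPM. Krt19, a keratin gene, was the epithelial gene apart, 2.16-fold (2.05 to 2.28) above its ileum level in the colon. The part of either cell type in the Cd55 profile was not tested.

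**Figure D3:**
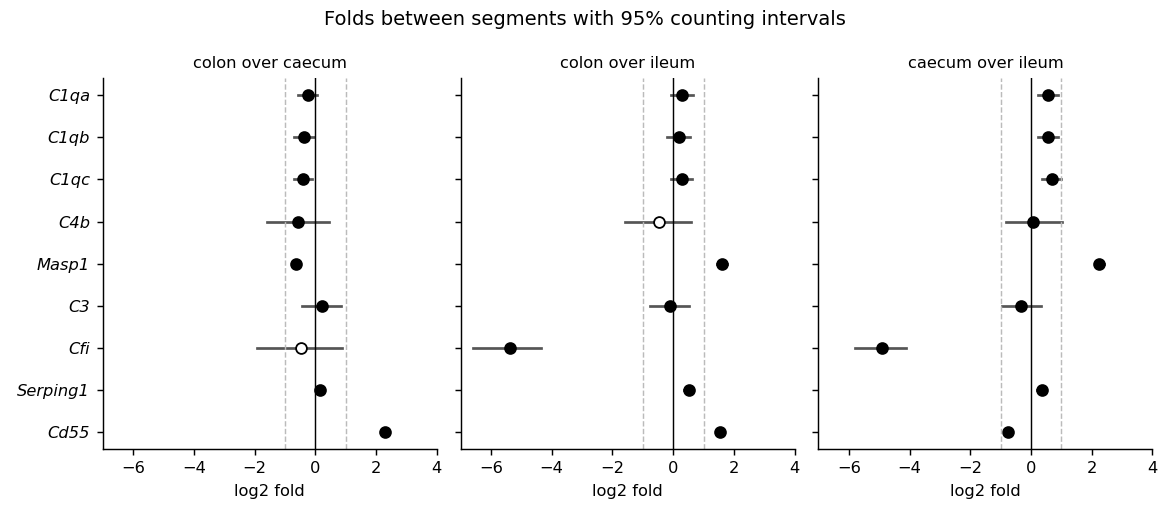
Log2 folds of the members for colon over caecum, colon over ileum and caecum over ileum, with 95% intervals that cover counting error only. Filled points entered the comparison and open points had fewer than 20 counts in the higher library. Dashed lines mark a fold of 2. Cd55 in colon over caecum, Cfi, Cd55 and Masp1 in colon over ileum, and Cfi and Masp1 in caecum over ileum lie beyond the dashed lines.

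The wider pathway was read through 57 complement genes, listed by role, of which 56 were in the table and 42 reached 20 counts in a library. Beside the members, 19 genes were apart in at least 1 comparison, 14 stayed within 2-fold in all, and 14 did not reach 20 counts. Of the 42 genes, 9 were highest in the colon, 20 in the caecum and 13 in the ileum, that is 21.4%, 47.6% and 31.0%, against 28.9%, 36.7% and 34.3% of all 18005 features with such counts. Without the members, 2 genes were higher and 10 lower among 32 compared for colon over caecum, 5 higher and 9 lower among 31 for colon over ileum, and 6 higher and 3 lower among 32 for caecum over ileum. Over all features, 2.74% were higher and 5.11% lower in the first comparison, 4.04% and 4.29% in the second, and 4.59% and 2.52% in the third. Many of these genes had few counts, and those with intervals wholly beyond 2-fold numbered 6, 9 and 5, beside 4.14%, 4.37% and 3.53% of all features.

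Partners of C1q and the convertase genes were present at low to moderate levels. C1s, a protease of the C1 complex, had 64, 107 and 24 counts in the colon, caecum and ileum and was in the colon 2.59-fold (1.6 to 4.33) and in the caecum 3.43-fold (2.19 to 5.58) above its ileum level. C1ra, its partner, had 16, 14 and 29 counts and was 2.69-fold (1.38 to 5.52) below its ileum level in the caecum. The spans of C1ra and C1s both overlap that of C1rb, so their reads may not have been told apart. C2, which supplies the protease of the classical convertase, was even at 4.02, 4.16 and 3.80 RPKM. Cfb, its counterpart in the alternative route, had 319, 936 and 673 counts and was 2.32-fold (2.04 to 2.64) below its caecum level in the colon and 2.17-fold (1.90 to 2.49) below its ileum level. C2 and Cfb both overlap Gm20547 on the same strand, and C2 also overlaps Zbtb12 on the other. Gm20547 had 197, 588 and 406 counts in the colon, caecum and ileum, and Zbtb12 had 2770, 3824 and 2604. Reads of C2 and Cfb may not have been told apart from theirs. In RPKM, Cfb exceeded C3 by 13.8, 36.6 and 27.5 times in the colon, caecum and ileum. Cfd, the gene of factor D, which cleaves factor B, had 0, 1 and 0 counts.

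Genes of the terminal pathway, which builds the membrane attack complex, were mostly below 20 counts. Of 7, C8g and C9 reached 20 counts. C8g had 90, 142 and 94 counts in the colon, caecum and ileum. It overlaps Fbxw5 by 970 bases on the other strand, with 3126, 4320 and 2968 counts, and reads of that stretch may not have been told apart. C9, the pore-forming subunit, had 16, 62 and 62 counts in the colon, caecum and ileum and was 3.07-fold (1.75 to 5.69) below its caecum level in the colon and 3.99-fold (2.27 to 7.40) below its ileum level. C8a had 0 counts in every library, and Hc, C6, C7 and C8b at most 17. Mbl1 and Fcnb, recognition proteins of the lectin route, also had 0 counts in every library, where a count of 0 allows up to 3. Fcna and Colec11, others of that route, were sparse, with 7, 24 and 6 counts and 26, 25 and 12 counts. Fcna was 3.08-fold (1.22 to 9.20) above its ileum level in the caecum and 2.71-fold (1.13 to 7.45) below its caecum level in the colon, and Colec11 was 2.11-fold (1.03 to 4.58) above its ileum level in the colon.

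Soluble regulators other than Cfi and Serping1 were lower in the colon than in the caecum wherever they entered that comparison. All 4, C4bp, Clu, Vtn and Cpn1, were apart, beside 5.11% of all features lower by that mark, while Serping1 was 1.12-fold above its caecum level in the colon. The lists were chosen with earlier results known, so nothing is read from this count. Clu, the gene of clusterin, which blocks assembly of the attack complex, had 811, 2325 and 298 counts in the colon, caecum and ileum and was 2.27-fold (2.09 to 2.46) below its caecum level in the colon and 6.0-fold (5.31 to 6.79) above its ileum level in the caecum. Vtn, the vitronectin gene, had 21, 72 and 13 counts and was 4.26-fold (2.34 to 8.38) above its ileum level in the caecum. Cpn1, a chain of the carboxypeptidase that inactivates anaphylatoxins, had 202, 654 and 426 counts and was 2.56-fold (2.18 to 3.01) below its caecum level in the colon. The median log2 fold of the soluble regulators compared, Serping1 and, against the ileum, Cfi included, was -1.36 for colon over caecum, -0.30 for colon over ileum and 0.29 for caecum over ileum.

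Among membrane regulators, Cd55 and Daf2 were the 2 whose colon level exceeded the caecum level by the 2-fold mark. Cr1l, Cd59a and Cd59b, which also protect cells from complement, stayed within 2-fold in all comparisons, with 9.52, 7.98 and 7.94 RPKM of Cr1l in the colon, caecum and ileum. Cd46, a further cofactor of factor I, had 46, 34 and 55 counts and was 2.10-fold (1.35 to 3.33) below its ileum level in the caecum. Csmd1, Csmd2 and Csmd3, large proteins with complement-type domains that are best known from neurons, were in the colon 2.18-fold, 8.65-fold and 3.4-fold below their caecum levels and 4.12-fold, 3.23-fold and 3.97-fold below their ileum levels. Csmd3 overlaps Gm16300 on the same strand, which had 464, 407 and 293 counts. Csmd2, with 28, 306 and 88 counts, was also 2.67-fold (2.10 to 3.43) above its ileum level in the caecum. Susd4 had 844, 1212 and 1820 counts and was 2.22-fold (2.04 to 2.41) below its ileum level in the colon.

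Of 10 receptor genes 8 reached 20 counts, and Cr2 and Itgb2 were apart. C3ar1 and C5ar1, the anaphylatoxin receptors, had 56, 106 and 62 counts and 48, 39 and 40 counts in the colon, caecum and ileum. Cr2, a C3d receptor of B cells, had 33, 15 and 15 counts and was 2.78-fold (1.47 to 5.51) above its caecum level in the colon and 2.14-fold (1.13 to 4.24) above its ileum level. Itgb2, the shared chain of the integrins that bind cleaved C3, had 36, 88 and 24 counts and was 2.82-fold (1.78 to 4.63) above its ileum level in the caecum. Vsig4, a C3b receptor of tissue macrophages, had 0, 1 and 1 counts.

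**Figure D4:**
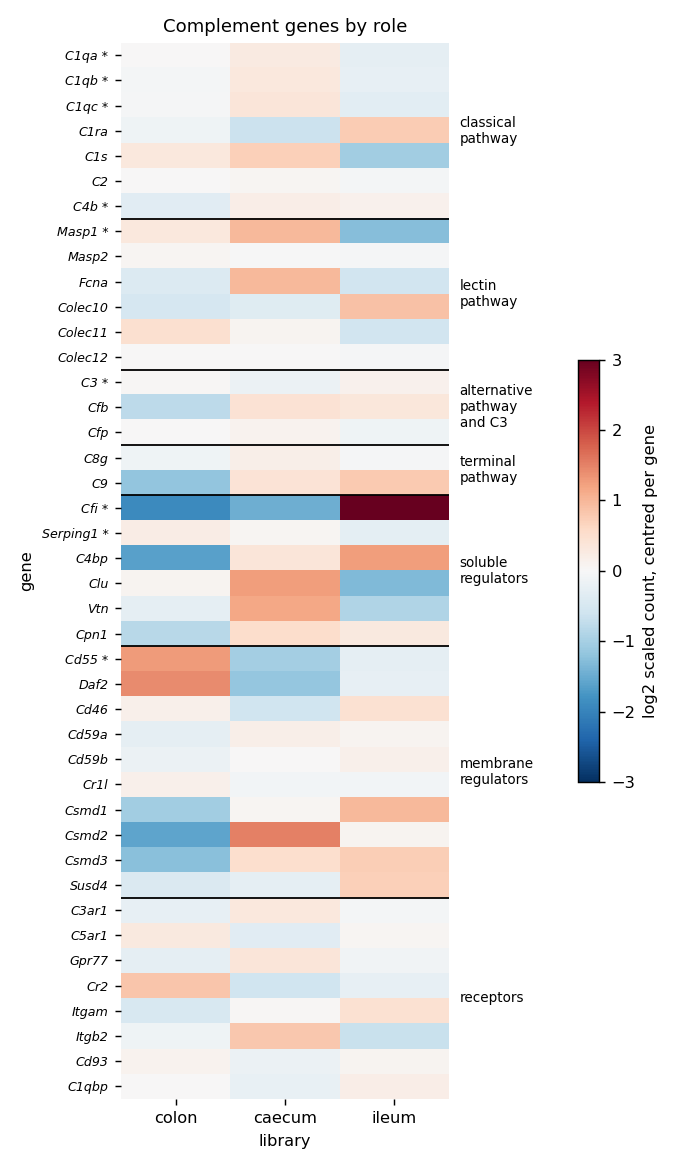
Log2 scaled counts of the 42 complement genes with 20 counts or more in a library, centred on each gene's mean over the colon, caecum and ileum libraries and grouped by role (asterisks mark the members; colours are capped at 3). Cfi is deepest red in the ileum, Cd55 and Daf2 are red in the colon alone, and the soluble regulators Clu and Vtn are red in the caecum.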

How the data were processed

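RNA-seq values came from 1 table of 3 samples. Expected counts, which the authors deposited in steps of 0.5, and RPKM, which the authors computed, are given per Ensembl gene. Bowtie 0.12.7, DESeq and mm9 are listed, per the submitters' processing notes, without the role of each. Not given in the sources used here are the counting program, the annotation release, whether strand was used and whether both reads of a pair were counted, in which case intervals would be too narrow. Both columns of a library were averaged and rounded, and scaled by TMM (edgeR 4.0.16, R 4.3.3). Intervals are exact Clopper-Pearson at 95% on the conditional binomial, and a count of 0 was set to 3. Table starts count from 0 (End minus Start equals the GENCODE gene length for 18653 of 29558 shared genes), so 1 was added. Promoter windows are RefSeq's, on GRCm38.p6, and were not placed on mm9. For symbols with several rows the highest was used. The procedure was tested on simulated counts. Members and lists were chosen with earlier results of these data known. Named in full were all members and each gene of the wider list at least 2-fold apart in a comparison. Likeness added 0.5 to scaled counts, and the 3 nearest genes were taken, leaving out predicted, Riken, clone, ribosomal, histone and mitochondrial names. Of the wider list, 1 gene is not reported here and is in none of its counts. Alternatives covered scaling, the authors' RPKM, single columns, count minimum, fold and interval.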

Additional observations from a re-analysis of the deposited data

How the results depend on the processing

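Scaling by median of ratios (DESeq2 1.42.0), upper quartile or total counts, the authors' RPKM and each column alone left the number of members apart at 1 for colon over caecum, 3 for colon over ileum and 2 for caecum over ileum, and no member fold that was apart changed direction. At a fold of 1.5 the members apart were 2 for colon over caecum and 4 for caecum over ileum. For the wider list, 13, 17 and 11 genes were apart in colon over caecum, colon over ileum and caecum over ileum. With at least 100 counts they were 7, 10 and 6, among fewer genes compared (26, 23 and 27 against 40, 39 and 41). With the interval wholly beyond 2-fold they were 7 for colon over caecum and 7 for caecum over ileum, and at a fold of 1.5 they were 18 for caecum over ileum. Without Lyz2, Mrc1 and Pf4 the C1q median stood 0.42 above the macrophage median in caecum over ileum, against 0.53 with them. Depth limits the sparse members: over scalings, RPKM and columns the log2 fold of C4b ran from -0.65 to 0.82 in caecum over ileum, and that of Cfi from -0.94 to 0.02 in colon over caecum. No paired analysis was possible because each segment had 1 sample.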

Other observations

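Genes that share the globular C1q domain without being complement components were read by symbol, as all rows named C1ql or C1qtnf, a choice made after the values were seen. Of 12, 8 entered each comparison. C1qtnf3 had 146, 930 and 95 counts in the colon, caecum and ileum and was 7.53-fold (6.09 to 9.40) above its ileum level in the caecum, a larger fold than any of the C1q chains. C1qtnf4 had 120, 320 and 136 counts and was 2.11-fold (1.71 to 2.62) below its caecum level in the colon. C1qtnf5, with 61, 58 and 26 counts, was 2.28-fold (1.42 to 3.76) above its ileum level in the colon, and C1qtnf2, with 41, 34 and 59, was 2.26-fold (1.46 to 3.55) below its ileum level in the caecum. C1ql1, C1qtnf1, C1qtnf6 and C1qtnf7 stayed within 2-fold in every comparison.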
